A study of Mus musculus with 4 samples.

Results

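Translation initiation factor genes were examined in fully grown mouse oocytes before and after their chromatin condenses around the nucleolus. The members were the gene symbols of the Eif1 to Eif6 series, without the oocyte-type cap binder Eif4e1b, the eIF4E transporter Eif4enif1 and pseudogenes. By this rule, 54 of the 16861 genes listed in the libraries were members, and 48 of them were tested because their FPKM averaged at least 0.5 over the 4 libraries. FPKM is the number of read pairs on a gene relative to the length of its exons and to the read pair total used for the library. All oocytes were germinal vesicle (GV) oocytes, arrested in meiotic prophase, from the antral follicles of 3-week-old female C57BL/6J mice. In NSN (non-surrounded nucleolus) oocytes the chromatin was diffuse, and in SN (surrounded nucleolus) oocytes it formed a ring around the nucleolus. Oocytes were freed of cumulus cells by pipetting and sorted by eye after staining with a Hoechst DNA dye. Each of the 2 NSN and 2 SN libraries pooled 15 oocytes and was made by Smart-seq2, in which cDNA is primed at the poly(A) tail and amplified by PCR. Nothing in the labels says that the libraries of a group came from separate mice, so p-values measure only the spread between these libraries, which may be technical.

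Initiation factors bring the small ribosomal subunit with its initiator tRNA to an mRNA, find the start codon and join the large subunit. eIF2 carries the initiator tRNA, eIF3 holds the small subunit, the eIF4 group reads the cap and unwinds the leader, and eIF1, eIF1A, eIF5 and eIF5B control start codon choice and subunit joining. A growing oocyte stores mRNA, and after transcription stops, meiotic maturation and the early embryo depend on which stored mRNAs are translated. The comparison of SN with NSN oocytes asked whether the transcripts of this machinery differed in level between the 2 chromatin states.

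The read pair totals behind the FPKM, recovered from the deposited values, were 17069772 to 17998361 per library. Genes with recovered read pairs held 97.96% to 97.98% of these totals, which may leave out pairs not counted on a gene. With these totals, 3 read pairs on a gene of 1 kb corresponded to an FPKM of 0.167 to 0.176, a limit that covers counting error only. Genes of the oocyte were abundant in every library. Of 10 oocyte markers, 9 had both SN libraries below both NSN libraries and 7 were called lower in SN, against 17.8% and 1.98% of all tested genes. After median scaling Zp2 (adjusted p 0.055) and Ddx4 (0.059) were no longer called. The summed FPKM of the oocyte markers was 21563 and 20458 in NSN and 14787 and 14128 in SN. Of 12 granulosa and cumulus cell markers, 8 were listed and none of these 8 was at 0 in any library. Their summed FPKM was 8.05 and 11.4 in NSN and 12.1 and 11.4 in SN. Cyp19a1 made up most of it, at 5.81 and 8.06 in NSN and 8.38 and 8.22 in SN. Of these markers, 3 passed the filter and limma called none (0 at an unadjusted p under 0.05). Both SN libraries were above both NSN libraries for 2 of the 3 (44.8% of all tested genes) and below for 0. The part of either marker list in the values given here was not tested. In these pools, fewer cells with a transcript and less of it per cell cannot be told apart.

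Initiation factor mRNAs were abundant in both states. The libraries of the 2 states did not overlap for 32 of the 48 tested members, and 4 of these passed the test. The median of the mean FPKM was 29.2 over the 48 tested members and 4.45 over all 11672 tested genes. In a limma fit of log2(FPKM + 0.5) across all tested genes, a call needed a fold of at least 1.2 and, after Benjamini-Hochberg adjustment, a p under 0.05. Of the 48 members, 4 (8.33%) were called, against 7.93% of all tested genes. Eif5b, Eif3e and Eif4a2 were higher in SN, which is 6.25% of the members against 5.95% of all genes. Eif1a was lower in SN, which is 2.08% of the members against 1.98% of all genes. The share of members called was thus close to the share of all genes in both directions. At an unadjusted p under 0.05 there were 14 members (29.2%) against 31.7% of all genes. Both SN libraries lay above both NSN libraries for 25 members (52.1%), against 44.8% of all genes, and below both for 7 members (14.6%), against 17.8%.

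The deposited FPKM of most genes were slightly higher in SN, and the median log2 fold change (SN over NSN) was 0.14 over all tested genes and 0.12 over the members. When each library was divided by its median ratio to the mean library, these medians became 0.005 and -0.03, and the number of members with a fold change above 0 went from 33 to 21. After this median scaling no member was called higher, against 0.574% of all genes, and Eif1a alone was called lower (2.08%, against 1.43%). Over all genes, 695 were called higher and 231 lower on the deposited FPKM, against 67 higher and 167 lower after median scaling. The calls also rested on every library except NSN replicate 2, and over all genes the number of calls likewise changed with the library left out. With each library left out in turn, the log2 fold change was 0.61 to 0.69 for Eif5b and 0.38 to 0.52 for Eif3e. For Eif4a2 it was 0.38 to 0.46 and for Eif1a -1.32 to -1.03. An exact permutation test of 2 libraries against 2 cannot give a two-sided p below 0.333.

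Many members held a steady level on the deposited FPKM. For 17 of the 48 (35.4%) the 4 FPKM values lay within a factor of 1.2 of each other, against 18.3% of all tested genes. Among genes that averaged at least 5 FPKM, where counting error is smaller, this held for 15 of 37 members (40.5%) and 29.2% of all genes. The median level of the tested members was 29.2 FPKM, against 4.45 over all tested genes, and genes of like level were not compared. Eif2s2, which encodes the beta subunit of eIF2, was at 247 and 243 FPKM in NSN and 251 and 248 in SN. Eif4a3, the helicase of the exon junction complex, was at 223 and 238 and at 233 and 222. Eif2ak1, a kinase of eIF2 alpha, was at 31.0 and 30.7 and at 30.9 and 29.7. The lowest and highest of the 4 deposited values thus differed little for these genes, whether or not the groups overlapped. After median scaling the log2 fold changes of Eif2s2, Eif4a3 and Eif2ak1 were -0.13, -0.17 and -0.18, and none was called. The share of genes within a factor of 1.2 was not computed after that scaling.

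**Figure D1:**
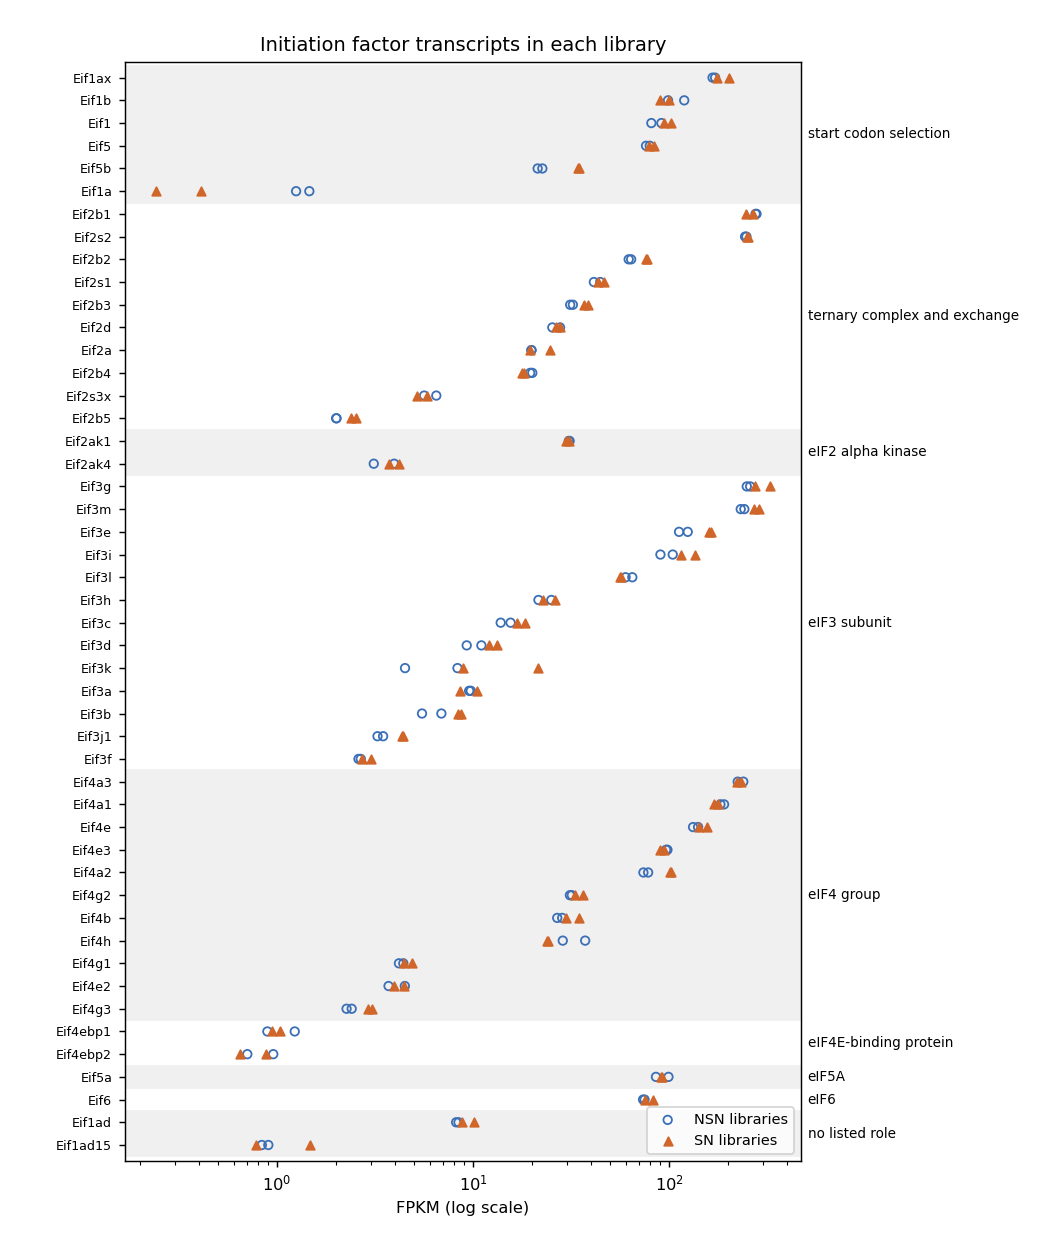
FPKM (log axis) of the 48 tested members in each of the 2 NSN (open circles) and 2 SN (triangles) libraries, ordered by role and by mean level. The symbols of a gene mostly lie close together, and the groups of Eif1a and Eif5b are clearly apart.

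**Figure D2:**
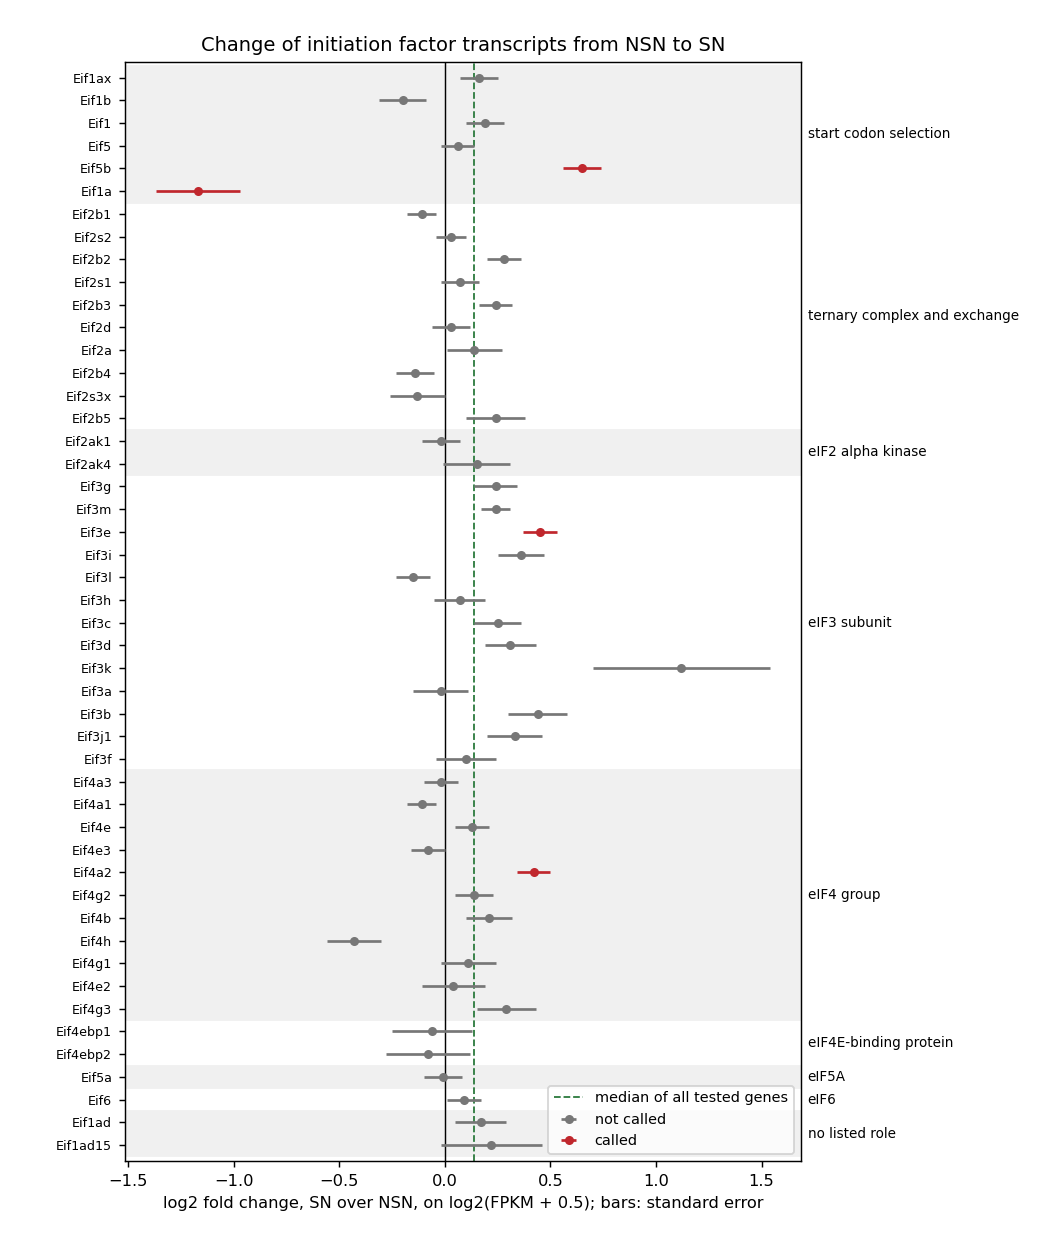
Log2 fold change of SN over NSN on log2(FPKM + 0.5) for the 48 tested members, with bars of 1 standard error. Red points mark the 4 called genes, and the dashed line marks the median of all tested genes at 0.138.

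Start codon selection and subunit joining held the largest called changes in both directions. Eif5b encodes the GTPase that joins the large subunit, and it lies on chromosome 1 at 38037038 to 38094683 (GRCm39, plus strand). It was at 22.5 and 21.3 FPKM in NSN replicates 1 and 2 and at 34.8 and 34.3 in SN replicates 1 and 2. Both SN libraries were well above both NSN libraries, and the spread within each group was small. The log2 fold change was 0.65 (SE 0.09, adjusted p 0.036), or 0.51 relative to the median of all genes. After median scaling it was 0.49 with an adjusted p of 0.055. Eif5b shares 19.9% of its exonic bases with Rev1 in a later annotation release than the one used for counting. Reads were counted without regard to strand, and how those in shared bases were treated was not tested.

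Eif1a was the one member called lower. It encodes an eIF1A protein, which holds the scanning small subunit in its open state, and lies on chromosome 18. Its level was low throughout, at 1.46 and 1.25 FPKM in NSN and 0.408 and 0.24 in SN. These values stand on 106 and 93 read pairs in NSN and 29 and 18 in SN. Both SN libraries were below both NSN libraries, and the SN libraries differed from each other by more, in proportion, than the NSN libraries did. The log2 fold change was -1.17 (SE 0.20, adjusted p 0.037) and -1.26 after median scaling (adjusted p 0.048). Eif1a was not called in the limma fit without a filter (adjusted p 0.054) or without the variance trend (0.092). At this level the size of the change depended on the pseudocount. It was -1.80 with a pseudocount of 0.1 and -0.83 with a pseudocount of 1, and -2.09 (SE 0.33) when limma's voom was run on recovered read pairs.

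Eif1ax, which encodes the other eIF1A, was the highest gene of this role, at 171 and 166 FPKM in NSN and 175 and 202 in SN. Its SN libraries were above its NSN libraries by little, with a log2 fold change of 0.16 (SE 0.09, adjusted p 0.27) that was 0.00 after median scaling. Eif1a was thus a small fraction of the eIF1A mRNA in every library, at 0.00853 and 0.00752 of the Eif1ax level in NSN and at 0.00233 and 0.00119 in SN. The 2 genes are close in sequence, and how the counting split reads between such copies was not tested. Eif1 and Eif1b encode the factor that rejects a wrong start codon. Eif1 ranged from 80.9 to 102 FPKM and Eif1b from 89.6 to 119. The ratio of Eif1b to Eif1 was 1.47 and 1.08 in NSN and 0.974 and 0.954 in SN, so Eif1b was the higher of the copies in NSN and slightly the lower in SN, and neither gene was called. Eif5, the GTPase activator of eIF2, was at 79.4 and 76.0 and at 78.9 and 83.2 FPKM. The ratio of Eif5b to Eif5 was 0.284 and 0.280 in NSN and 0.441 and 0.412 in SN.

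**Figure D3:**
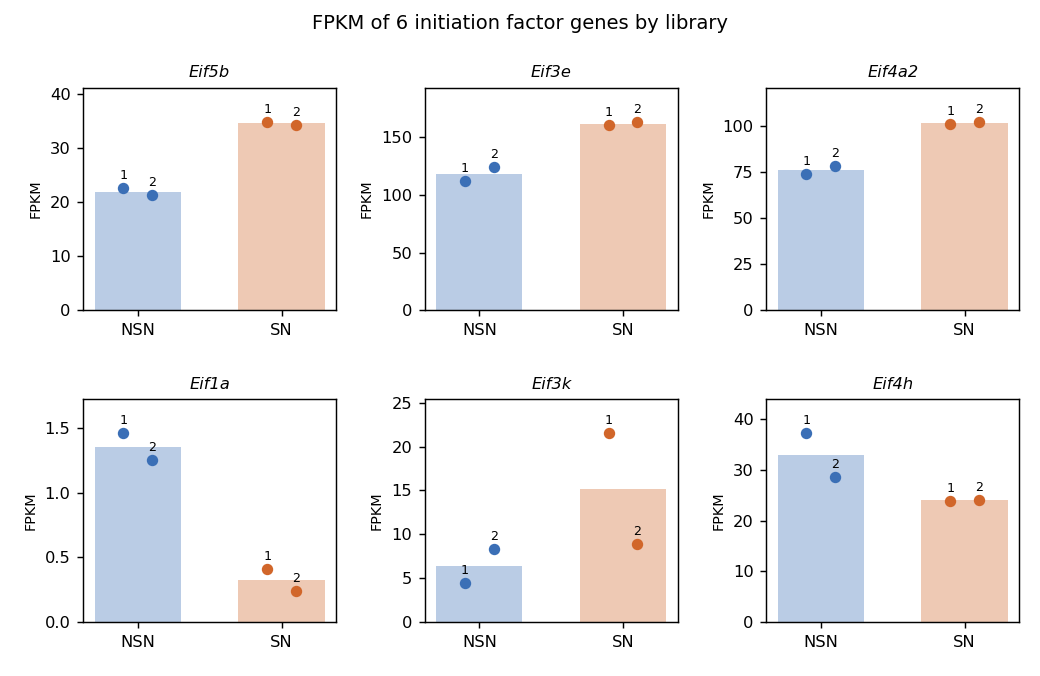
FPKM of Eif5b, Eif3e, Eif4a2, Eif1a, Eif3k and Eif4h in each library, with replicate numbers beside the points and bars at the group means (axes from 0). The first 4 genes were called, whereas Eif3k and Eif4h were not and show 1 library far from its partner.

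In the limma fit across all tested genes, no gene of the ternary complex and its exchange factor was called, against 7.93% of all tested genes. At an unadjusted p under 0.05 there were 2 of the 10, against 31.7% of all. eIF2 delivers the initiator tRNA, and eIF2B, a complex of several kinds of subunit, reloads eIF2 with GTP. All members of this role passed the filter. Both SN libraries were above both NSN libraries for 4 of them (44.8% of all tested genes) and below for 2 (17.8% of all). Eif2b1 (the alpha subunit of eIF2B) was the highest, at 278 and 275 FPKM in NSN and 246 and 266 in SN. Its log2 fold change was -0.11 (SE 0.07, adjusted p 0.33), and the groups did not overlap. Eif2b2 (the beta subunit) was at 62.0 and 63.8 and at 75.9 and 77, with a log2 fold change of 0.28 (SE 0.08, adjusted p 0.068), and 0.13 after median scaling. It was called higher in the limma fit of genes averaging at least 5 FPKM (adjusted p 0.036) and in voom with total scaling (0.0473). The ratio of Eif2b2 to Eif2b1 was 0.223 and 0.232 in NSN and 0.309 and 0.290 in SN.

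The subunits of 1 complex thus stood at very different mRNA levels. Eif2b3 ranged from 31.2 to 38.3 FPKM over the 4 libraries, Eif2b4 from 17.7 to 20 and Eif2b5, the catalytic subunit, from 2.0 to 2.52. The same was true of eIF2 itself. Eif2s2 was above 240 FPKM in every library, Eif2s1 (the alpha subunit, which the stress kinases phosphorylate) ranged from 41.2 to 46.3, and Eif2s3x (the gamma subunit, on the X chromosome) from 5.18 to 6.48. Eif2a and Eif2d, which encode other binders of initiator tRNA, ranged from 19.4 to 24.6 and from 25.3 to 27.7.

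Of the 4 kinases of eIF2 alpha, which lower initiation under stress, 2 passed the filter and neither was called or had an unadjusted p under 0.05. Eif2ak1, the heme-regulated kinase, was the highest, at the level of about 30 FPKM given above. Its log2 fold change was -0.02 (SE 0.09, adjusted p 0.87), and -0.18 after median scaling. Eif2ak4, the sensor of uncharged tRNA, ranged from 3.11 to 4.18. The endoplasmic reticulum stress kinase Eif2ak3 was below the filter at 0.581 and 0.450 FPKM in NSN and 0.339 and 0.425 in SN. Eif2ak2, the kinase that binds double-stranded RNA, had 2 to 6 read pairs in a library.

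The eIF3 subunits leaned towards higher values in SN, and 1 of them was called. eIF3 is the largest initiation factor and the platform on which the others assemble. Of its 14 genes, 13 passed the filter, 10 had both SN libraries above both NSN libraries (44.8% of all tested genes did) and 1 had them below (17.8% of all). On the deposited FPKM, which were slightly higher in SN for most genes, the 14 genes summed to 826 and 860 in NSN and 981 and 1053 in SN. The median log2 fold change of the 13 genes was 0.25, against 0.14 over all tested genes, and 0.10 after median scaling, against 0.005. At an unadjusted p under 0.05 there were 8 of the 13, against 31.7% of all genes, and only Eif3e was called. Eif3e was at 112 and 124 FPKM in NSN and 160 and 163 in SN, with no overlap. The gene lies on chromosome 15 at 43110856 to 43146174 (GRCm39, minus strand). The log2 fold change of Eif3e was 0.45 (SE 0.08, adjusted p 0.039), or 0.31 relative to the median of all genes. It was 0.29 after median scaling (adjusted p 0.076).

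Eif3g, an RNA-binding subunit, was the highest of the complex at 248 and 258 FPKM in NSN and 274 and 326 in SN (log2 fold change 0.24, SE 0.10, adjusted p 0.15). Its groups did not overlap, although the SN libraries were far apart. Eif3m was close behind at 231 to 287 FPKM, and Eif3i ranged from 90.0 to 135 (log2 fold change 0.36, SE 0.11, adjusted p 0.091). Eif3b, a core scaffold, was at 5.48 and 6.88 and at 8.67 and 8.34, with a log2 fold change of 0.44 (SE 0.14, adjusted p 0.090). Eif3b and Eif3i were not called on the deposited FPKM and were called when the fit took only genes that averaged at least 5 FPKM. Eif3l was the subunit with both SN libraries below both NSN libraries, at 64.7 and 59.8 and at 55.9 and 56.5 (log2 fold change -0.15, SE 0.08, adjusted p 0.27). The ratio of Eif3e to Eif3l was 1.73 and 2.08 in NSN and 2.86 and 2.88 in SN.

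Eif3k had the highest positive log2 fold change of the tested members and was not called on the deposited FPKM, and its libraries were far apart. It was at 4.49 and 8.31 FPKM in NSN and 21.5 and 8.89 in SN, so that SN replicate 2 was next to NSN replicate 2. Its log2 fold change was 1.12 (SE 0.42, adjusted p 0.13), 0.50 without SN replicate 1 and 1.73 without SN replicate 2. It was called without NSN replicate 2 (1.53, adjusted p 0.0401) and in voom on read pairs with total scaling (1.16, adjusted p 0.0376). The other subunits were Eif3h (21.5 to 26.0 FPKM), Eif3c (13.8 to 18.3), Eif3d (9.26 to 13.2), Eif3a (8.52 to 10.5), Eif3j1 (3.25 to 4.36) and Eif3f (2.60 to 3.01). Eif3a is the large scaffold subunit and Eif3d can bind the cap. The mean level of the highest subunit was 101 times that of the lowest tested one, and Eif3j2, a copy of Eif3j1, was below the filter at 0.329 to 0.537 FPKM.

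In the eIF4 group, Eif4a2 was called higher in SN, whereas its near copies were not. Eif4a1, Eif4a2 and Eif4a3 encode DEAD-box helicases, of which the first pair work in eIF4F, the complex that binds the cap and unwinds the leader. Eif4a2 was at 73.7 and 77.9 FPKM in NSN and 101 and 102 in SN. Its log2 fold change was 0.42 (SE 0.08, adjusted p 0.039), or 0.28 relative to the median of all genes, and 0.26 after median scaling (adjusted p 0.087). It lies on chromosome 16 at 22925894 to 22932886 (GRCm39, plus strand), and 24.1% of its exonic bases are shared with other genes, among them Rfc4 and small nucleolar RNAs. Eif4a3 was the highest gene of the group, with a log2 fold change of -0.02 (SE 0.08, adjusted p 0.89). Eif4a1 was at 190 and 182 and at 176 and 168 FPKM, with both SN libraries below both NSN libraries (log2 fold change -0.11, SE 0.07, adjusted p 0.32). The ratio of Eif4a2 to Eif4a1 within a library was 0.388 and 0.427 in NSN and 0.575 and 0.605 in SN. A ratio within a library does not depend on its scaling, and it does not tell which of the genes changed. How the counting split reads between Eif4a1 and Eif4a2, which are close in sequence, was not tested, nor was any difference between the changes of 2 genes.

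Eif4h, which encodes a cofactor of the helicase, was at 37.2 and 28.6 FPKM in NSN and 23.9 and 24.1 in SN. Its groups did not overlap, and the NSN libraries were far apart (log2 fold change -0.43, SE 0.13, adjusted p 0.086). It was called lower when NSN replicate 2 was left out (-0.62, adjusted p 0.0167) and was at -0.25 (adjusted p 0.29) without NSN replicate 1. It was also called in the fit of genes averaging at least 5 FPKM and in voom. Eif4b, the other cofactor, ranged from 26.8 to 34.8 FPKM, and the ratio of Eif4h to Eif4b was 1.31 and 1.07 in NSN and 0.688 and 0.813 in SN.

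**Figure D4:**
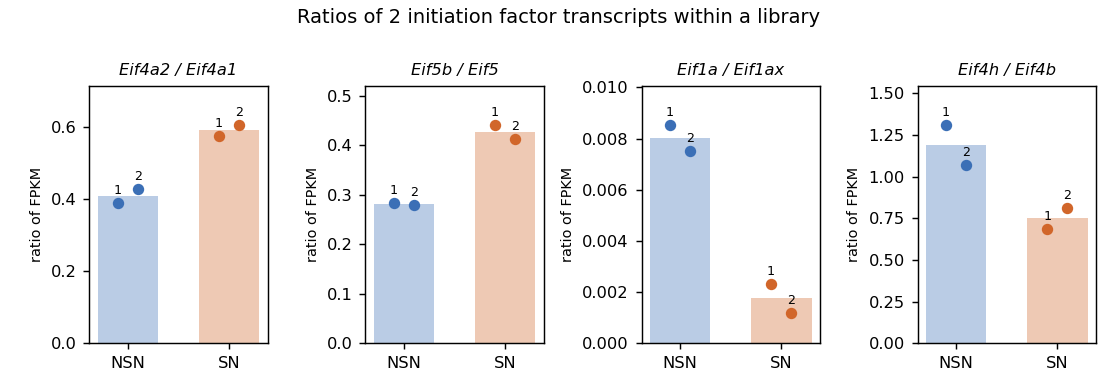
Ratio of the FPKM of 2 initiation factor genes within each library, with replicate numbers beside the points and bars at the group means (axes from 0). The SN libraries lie above the NSN libraries for Eif4a2 over Eif4a1 and Eif5b over Eif5, and below them for Eif1a over Eif1ax and Eif4h over Eif4b.

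No cap binder or scaffold of the eIF4 group was called by limma. Eif4e, the main cap-binding protein, ranged from 132 to 155 FPKM, Eif4e3 from 89.5 to 97.7 and Eif4e2, which binds the cap without joining eIF4G, from 3.70 to 4.48. The scaffolds that link the cap to the ribosome were lower. Eif4g2, which lacks the region that binds eIF4E, ranged from 31.1 to 36.3, Eif4g1 from 4.18 to 4.87 and Eif4g3 from 2.26 to 3.03. The ratio of Eif4g3 to Eif4g1 was 0.545 and 0.541 in NSN and 0.621 and 0.650 in SN. The eIF4E-binding proteins, which block the assembly of eIF4F, were near the lower end, and Eif4ebp1 was the higher at 0.892 and 1.23 FPKM in NSN and 0.939 and 1.03 in SN (log2 fold change -0.06, SE 0.19, adjusted p 0.84). Eif4ebp2 ranged from 0.644 to 0.956. The groups overlapped for both genes, neither had an unadjusted p under 0.05, and with as few as 31 read pairs for Eif4ebp1 and 67 for Eif4ebp2 in a library a small change was not detectable at this depth.

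The remaining members were not called by limma either, and none had an unadjusted p under 0.05. Eif5a, whose product frees stalled ribosomes and carries the modified lysine hypusine, was at 85.4 and 98.9 FPKM in NSN and 91.7 and 91.1 in SN (log2 fold change -0.01, SE 0.09, adjusted p 0.96), with overlapping groups. Its copy Eif5a2 was below the filter, with 8 and 18 read pairs in NSN and 26 and 25 in SN. Eif6, which keeps the large subunit from joining too early, was at 73.4 and 74.7 and at 75.1 and 82.3 FPKM (log2 fold change 0.09, SE 0.08, adjusted p 0.51). Eif1ad, an eIF1A-domain gene of no role listed here, was at 8.18 and 8.41 and at 10.1 and 8.72 (log2 fold change 0.17, SE 0.12, adjusted p 0.37). Of its relatives on chromosome 12, Eif1ad15 ranged from 0.778 to 1.48 FPKM, Eif1ad14 had 3 to 9 read pairs in a library, and Eif1ad11 had 0 to 3.

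Many genes of the translation machinery begin their mRNA with a C followed by pyrimidines (a TOP motif), which mTOR signalling uses to control their translation, so the annotated start sites of the members were searched. Of the 48 tested members, 38 had an entry in the RefSeq table of start sites (GRCm38.p6), and Eif3e had none. A run of at least 5 pyrimidines beginning with C, on the transcript strand and with its first base within 5 bases of an annotated start, was found for 10 of the 38 (26.3%), against 23.1% of the 8277 tested genes with an entry. The median log2 fold change was 0.13 for the members with a run and 0.10 for those without, and 0.12 and 0.14 over all genes. The windows below hold 15 bases before and 15 after the annotated start, with the run in capitals. They show the 3 genes with the longest runs counted by this rule. Of the 2 genes with a run of 8 bases they show Eif2b2, the other being Eif2b5. In Eif2b5 these 8 bases end a longer stretch of pyrimidines, which begins more than 5 bases before the start and was counted only in part. Eif5b and Eif4a2 are shown as the called genes with an entry, and their windows had no run.
Eif3f, chr7:108934400-108934429, plus strand: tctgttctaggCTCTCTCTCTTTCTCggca
Eif2s3x, chrX:94212637-94212666, minus strand: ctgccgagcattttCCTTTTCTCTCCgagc
Eif3l, chr15:79075208-79075237, plus strand: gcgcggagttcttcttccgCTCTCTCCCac
Eif2b2, chr12:85219466-85219495, plus strand: tttcaccgagcggaagttgaCCTCTCTCgg
Eif5b, chr1:37997995-37998024, plus strand: ggcgcctgggttcccacctggccggcggct
Eif4a2, chr16:23107453-23107482, plus strand: ccgcggaaaccccgtaggagcagggcggcc
The runs were 15 bases in Eif3f, 12 in Eif2s3x, 9 in Eif3l and 8 in Eif2b2, and none of these 4 genes was called. A match is a description of these letters, and start sites used in oocytes were not measured.

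Genes that work with the initiation factors were listed in 4 groups of 45 genes in all, 44 of which were listed in the libraries, and 41 of these were tested. Of 16 tested partners of initiation and binders of mRNA ends, 3 were called, namely Pabpc1l and Pabpc4 (lower) and Mcts2 (higher), against 1.98% of all tested genes called lower and 5.95% higher. Pabpc1l, the poly(A)-binding protein of the oocyte, was at 97.3 and 89.8 FPKM in NSN and 71.6 and 65.0 in SN (log2 fold change -0.45, SE 0.09, adjusted p 0.042). Pabpc4, a further poly(A)-binding protein, was at 84.5 and 82.4 and at 65.0 and 66.3 (-0.34, SE 0.08, adjusted p 0.047). Both were also called lower after median scaling. Mcts2, a partner of re-initiation, stood on only 8 and 5 read pairs in NSN and 18 and 20 in SN (log2 fold change 0.91, SE 0.19, adjusted p 0.045). Its NSN mean of 0.405 FPKM was under the filter of 0.5, so Mcts2 was tested only through its SN level (mean 1.19). It was not called after median scaling (adjusted p 0.069), with a pseudocount of 0.1 (0.0512) or in voom (0.0533), and passed in 1 of 9 alternatives that keep every library. Paip2, an inhibitor of poly(A)-binding proteins, was the highest of the group, at 467 and 466 and at 464 and 430 FPKM (-0.06, SE 0.07, adjusted p 0.58).

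Of 11 tested kinases, phosphatase subunits and sensors, 1 was called, against 7.93% of all tested genes, and it was also the highest. Atf4, the transcription factor whose mRNA is translated when eIF2 alpha is phosphorylated, was at 220 and 199 FPKM in NSN and 151 and 120 in SN. The groups did not overlap, with a log2 fold change of -0.63 (SE 0.12, adjusted p 0.040) and of -0.79 after median scaling (adjusted p 0.048). None of 10 tested elongation genes and none of 4 tested genes of termination and recycling was called. At an unadjusted p under 0.05 there was 1 of each, against 31.7% of all tested genes. Eef1a1, which brings aminoacyl-tRNA to the ribosome, was the highest elongation gene at 963 and 929 and at 916 and 809 FPKM (-0.14, SE 0.08, adjusted p 0.30). Gspt2, a release factor GTPase, was the highest of termination (-0.04, adjusted p 0.73). Leaving out NSN replicate 1 ended the calls of Pabpc1l, Pabpc4, Mcts2 and Atf4 (adjusted p 0.0954 to 0.16), as did leaving out SN replicate 2 (0.0934 to 0.122). Without SN replicate 1 Atf4 alone of these was called (0.0282), and without NSN replicate 2 Pabpc1l and Atf4 were (0.0268 and 0.021).

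**Figure D5:**
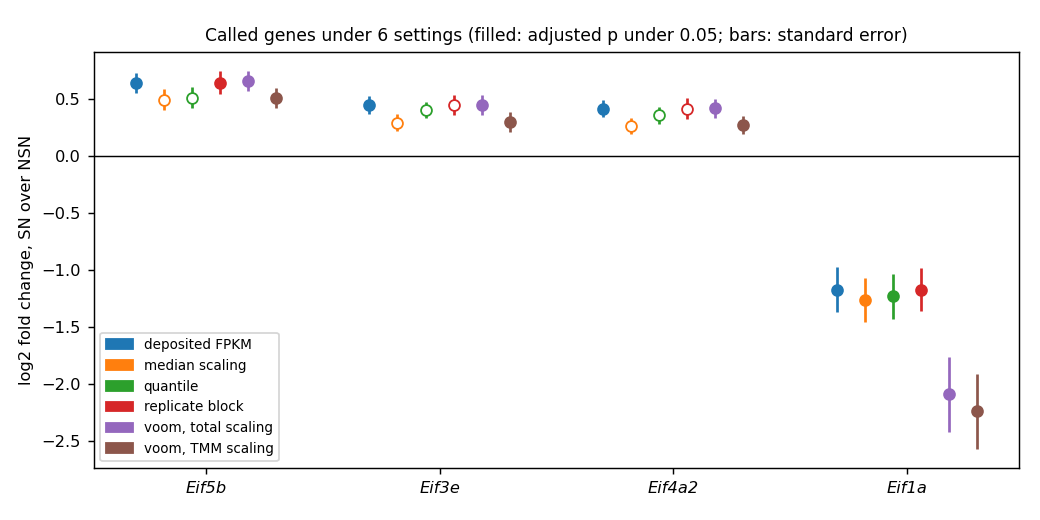
Log2 fold change of SN over NSN of the 4 called members under 6 settings, with bars of 1 standard error and filled symbols at an adjusted p under 0.05. Each gene keeps its direction, and Eif1a alone is filled under all 6. The fits without a filter or without the variance trend, in which none of the 4 was called, are not shown.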

How the data were processed

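Oocyte RNA was profiled by Smart-seq2 in 2 NSN and 2 SN libraries, grouped by the sample titles. The authors used Trim Galore 0.6.10 for trimming, HISAT2 for mapping to GRCm39 and featureCounts for counting read pairs over GENCODE vM34 exons (primary alignments, mapping quality of at least 10, no strand), and deposited FPKM without counts. Library totals were recovered here from the deposited FPKM of 5 mitochondrial tRNA genes, which gave whole read pairs (within 0.001) for 99.86% of the genes. Each tested member had 18 to 18767 read pairs in a library, and 7 had fewer than 100 in at least 1. These numbers limit the precision. Positions and exon overlaps came from GENCODE vM39, a later release on the same build, so the overlaps may differ from those of the exons counted. Of the tested members, 13 share at least 20% of their exonic bases with other genes.

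Differences between SN and NSN were fitted by limma 3.58.1 (R 4.3.3, lmFit and eBayes with a variance trend) on log2(FPKM + 0.5), over genes averaging at least 0.5 FPKM. Adjustment was by Benjamini-Hochberg over all tested genes, tests were two-sided, and fold changes of low genes are understated on this scale. The procedure was tested on simulated data with changes larger than those of Eif5b, Eif3e and Eif4a2, equal in both directions and without a general shift. That test thus does not cover the small changes or the shift in these data. Python 3.11.15 (numpy 2.4.6, pandas 2.3.3, matplotlib 3.10.9) served for all other steps. Alternatives were a pseudocount of 0.1 or of 1, no filter, a filter at 5 FPKM, quantile normalization or median scaling, a block for the replicate number, a fit without the variance trend, voom on recovered read pairs with total or TMM scaling, other thresholds, and each library left out in turn, where the lone library is assumed to vary like the other group. The members and lists were chosen with earlier results of these data known. Every tested member is named under its role, with the called ones and the highest of each role in full, and of the partners the called ones and the highest of each group. Genes described beyond these (such as Eif2b2, Eif3b, Eif3k, Eif3l and Eif4h) and the pairs set in ratio were chosen after their values were seen.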

Additional observations from a re-analysis of the deposited data

How the results depend on the processing

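The call of each initiation factor gene depended on the processing. Of 48 tested members, 4 were called, against 926 of 11672 genes over all. The number was also 4 with pseudocounts of 0.1 and 1 or with no fold threshold. It was 5 in voom with TMM scaling (1716 of 11660 over all genes) and 9 in voom with total scaling (2297 of 11660). Among genes averaging at least 5 FPKM it was 7 of 37 members (1496 of 5519 over all genes). At an adjusted p under 0.1 it was 8 of 48 (2370 of 11672). It was 1 with median scaling or quantile normalization (Eif1a) and 0 with all listed genes or no variance trend, where 15 and 9 had an unadjusted p under 0.05. With 1 library left out it ranged from 0 to 8, and where it was 0 there were 7 to 10 at an unadjusted p under 0.05. Of all genes, 926 were called, and the number was 1496 among genes averaging at least 5 FPKM, 234 with median scaling, 230 with quantile normalization, 0 with all listed genes or no variance trend (4092 and 3449 at an unadjusted p under 0.05), 2297 and 1716 in voom with total and TMM scaling, 2370 at an adjusted p under 0.1, and 0 to 1685 with 1 library left out. Of the partner genes, 4 were called, and the number was 8 among genes averaging at least 5 FPKM, 1 with quantile normalization, 0 with all listed genes or no variance trend (15 and 14 at an unadjusted p under 0.05), 12 and 8 in voom, 11 at an adjusted p under 0.1, and 0 to 7 with 1 library left out.

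The libraries share only a replicate number. The deviations of same-numbered libraries had a correlation of -0.07 over 11672 genes. With the replicate number as a block, 2 members (Eif5b and Eif1a), 2 partners (Atf4 and Paip1) and 422 of all genes (266 higher and 156 lower) were called. In voom with TMM scaling, 768 of all genes were higher and 948 lower.

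Of 538 values of 55 named genes under the alternatives that keep every library, 459 stayed on their side of 0 and of the threshold, 34 lost their call, 11 gained one and 34 changed sign, none of them past the threshold. The sign changes were in log2 fold changes near 0. With median scaling Eif2a was at -0.013, Eif2d at -0.12, Eif2s1 at -0.087, Eif2s2 at -0.13, Eif3f at -0.032, Eif3h at -0.086, Eif4e at -0.028, Eif4e2 at -0.099, Eif4g1 at -0.031, Eif4g2 at -0.015, Eif5 at -0.093 and Eif6 at -0.068. With quantile normalization Eif1ad was at -0.013, Eif2a at -0.025, Eif2ak4 at -0.0053, Eif2d at -0.12, Eif2s1 at -0.040, Eif3f at -0.035, Eif3h at -0.099, Eif4e2 at -0.12, Eif4g1 at -0.042 and Eif5 at -0.00039. With voom and TMM scaling Eif2a was at -0.0052, Eif2d at -0.12, Eif2s1 at -0.081, Eif2s2 at -0.12, Eif3f at -0.032, Eif3h at -0.084, Eif4e at -0.021, Eif4e2 at -0.10, Eif4g1 at -0.028, Eif4g2 at -0.0092, Eif5 at -0.087 and Eif6 at -0.061. These scalings lower the log2 fold change of most genes by construction. With 1 library left out, the log2 fold change of Eif1ad15 ranged from -0.099 to 0.54, that of Eif2a from -0.028 to 0.30, Eif2ak1 from -0.051 to 0.0029, Eif2ak4 from -0.0018 to 0.30, Eif2d from -0.033 to 0.093, Eif3a from -0.17 to 0.12, Eif3h from -0.043 to 0.17, Eif4a3 from -0.062 to 0.026, Eif4e2 from -0.083 to 0.16, Eif4ebp1 from -0.22 to 0.092, Eif4ebp2 from -0.21 to 0.061 and Eif5a from -0.11 to 0.097. The cause of the other changes was not tested. With 2 libraries a group and some members near 1 FPKM, small changes of low genes were not detectable at this depth.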
